A study of Mus musculus with 6 samples.

Results

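The 40 genes described here are core genes of the cell cycle and DNA replication: the D- and E-type cyclins and their kinases, the proteins that license and fire replication origins, enzymes of nucleotide supply, and the cyclins, kinases, checkpoint proteins and motors of mitosis. They were listed by name, under a rule that used no measured value, but earlier results of these data were known when they were chosen. Each was looked up in the table of expression values by the Ensembl identifier paired with it. Of the 40, 36 had a value, out of 17204 genes in all, and Mki67, Pcna, Cdt1 and Ube2c were not analysed here. Expression was compared between 2 mouse squamous cell carcinoma (SCC) lines, with 3 samples of each hybridized to 1 Affymetrix array per sample. Both lines come from tumors induced with DMBA and TPA in the skin of K14CreER FAKflox/flox mice on the FVB background, in which the keratin 14 promoter drives a tamoxifen-inducible Cre recombinase. After 4-hydroxytamoxifen, a single clone without focal adhesion kinase (FAK), a tyrosine kinase of cell adhesions, was isolated, and this is SCC FAK-/-. SCC FAK-wt is the same clone after a retrovirus restored wild-type FAK, and per the labels it was kept under 0.25 mg/ml hygromycin. The contribution of FAK itself and those of viral transduction and drug selection cannot be told apart in this comparison, and SCC FAK-/- rests on 1 clone.

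A dividing cell passes from G1, in which cyclin D with CDK4 and then cyclin E with CDK2 release E2F transcription factors from the retinoblastoma protein, into S phase, in which the MCM helicase loaded at origins by CDC6 and CDT1 opens the DNA for copying. Transcripts of the G1/S genes peak under E2F control, and those of the G2 and mitosis genes peak later. Promoters of many later genes carry a CHR element and a CCAAT box. FOXM1 and the DREAM and B-MYB complexes act through the CHR. In a culture of unsynchronized cells, transcripts of both waves are widely read as a measure of proliferation. The arrays measured whole cultures, so a larger share of cycling cells and more RNA per cycling cell cannot be told apart.

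The promoters of 4 members are shown as examples. Rrm2 had the smallest p, and Cdk1 and Cdc20 are mitotic genes whose samples did not overlap between the lines. Plk1 was the only member whose values as deposited were all lower in SCC FAK-wt, a separation lost after each array was centred on its median. Each window runs from 250 bases before to 50 bases after the annotated start, on the strand of the gene, from RefSeq on GRCm38.p6. Capitals mark matches on either strand to the E2F site (searched as TTCCCGC, then as TTGGCGC, then as TTCGCGC, then as TTGCCGC), to the CHR (searched as TTTGAA, then as TTCGAA) and to the CCAAT box (the letters CCAAT), and matches of different motifs may overlap.
Rrm2 (chr12:24708004-24708303, plus strand): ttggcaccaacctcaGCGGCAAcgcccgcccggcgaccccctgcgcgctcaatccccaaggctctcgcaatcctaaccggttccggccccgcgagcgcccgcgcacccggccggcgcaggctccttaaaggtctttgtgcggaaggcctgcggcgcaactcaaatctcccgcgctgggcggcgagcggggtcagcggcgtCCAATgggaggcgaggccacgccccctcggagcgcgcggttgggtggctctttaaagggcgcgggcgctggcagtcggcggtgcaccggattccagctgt
Cdk1 (chr10:69352863-69353162, minus strand): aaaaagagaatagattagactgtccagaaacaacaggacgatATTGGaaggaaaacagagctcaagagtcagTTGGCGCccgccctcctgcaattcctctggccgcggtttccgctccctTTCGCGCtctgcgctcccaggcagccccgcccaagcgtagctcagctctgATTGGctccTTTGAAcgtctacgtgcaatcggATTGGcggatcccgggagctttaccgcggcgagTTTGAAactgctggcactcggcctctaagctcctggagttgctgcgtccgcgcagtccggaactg
Cdc20 (chr4:118437294-118437593, minus strand): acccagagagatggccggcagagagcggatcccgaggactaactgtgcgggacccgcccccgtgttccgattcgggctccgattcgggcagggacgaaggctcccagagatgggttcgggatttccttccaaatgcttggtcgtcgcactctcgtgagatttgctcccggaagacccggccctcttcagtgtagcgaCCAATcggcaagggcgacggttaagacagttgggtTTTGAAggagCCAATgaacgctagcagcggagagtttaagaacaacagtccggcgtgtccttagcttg
Plk1 (chr7:122159185-122159484, plus strand): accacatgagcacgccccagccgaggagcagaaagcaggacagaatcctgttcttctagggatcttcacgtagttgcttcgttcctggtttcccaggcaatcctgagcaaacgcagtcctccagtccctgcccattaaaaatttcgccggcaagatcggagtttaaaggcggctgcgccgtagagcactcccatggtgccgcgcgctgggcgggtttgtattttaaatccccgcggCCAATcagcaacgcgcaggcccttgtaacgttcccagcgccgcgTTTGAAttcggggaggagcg
The Rrm2 window held 1 E2F match and 1 CCAAT box, whose first base lies at position -50 from the start. The Cdk1 window held 2 E2F matches, 2 CHR matches, at positions -71 and -15, and 3 CCAAT boxes. Cdc20 held 1 CHR match at position -18 with 2 CCAAT boxes, and Plk1 held 1 CHR match and 1 CCAAT box. Windows were found for 32 of the 40 genes, by symbol, and where a gene had several the first was used. An E2F match was present in 12 of the 32 (37.5%) and in 9.57% of all 32851 windows of the same length, among which a gene can have several. A CHR match was present in 15 (46.9%, and 19.2% of all windows) and a CCAAT box in 22 (68.8%, and 37.4% of all windows). A CHR and a CCAAT box occurred together in 15 of the 32 (46.9%) and in 7.52% of all windows. These are descriptions of sequence, and a match is not a bound site. The windows were not checked against the promoters in use, so a gene without a match may have a site elsewhere.

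None of the 36 genes passed an adjusted p under 0.05 in either direction (limma, two-sided, Benjamini-Hochberg adjustment over all 17204 genes). Over all genes 0.820% were called higher and 1.10% lower in SCC FAK-wt at this threshold, so 0 calls among 36 genes is near the share of all genes. At an unadjusted p under 0.01, the threshold named in the study's methods, 1 member, Rrm2, was higher and 0 were lower, where 3.19% and 3.66% of all genes were called. At an unadjusted p under 0.05, 8 members passed and all 8 were higher in SCC FAK-wt (Rrm2, Ttk, Tyms, Cdc20, Birc5, Cdc6, Cdk1 and Ccna2), against 7.76% of all genes called higher and 7.74% called lower. The log2 fold changes ran from -0.23 in Plk1 to 0.51 in Rrm2, with standard errors of 0.089 to 0.19. The 95% interval of the difference lay within a 2-fold change in both directions for all 36 members and within a 1.5-fold change for 33 of them. Large changes were rare in general: the estimate reached 2-fold in 1.48% of all genes, whose intervals were not counted. Values summarised by RMA can understate fold changes of dim genes, among which Ccnd2 and Tyms had the lowest values of the 36.

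**Figure D1:**
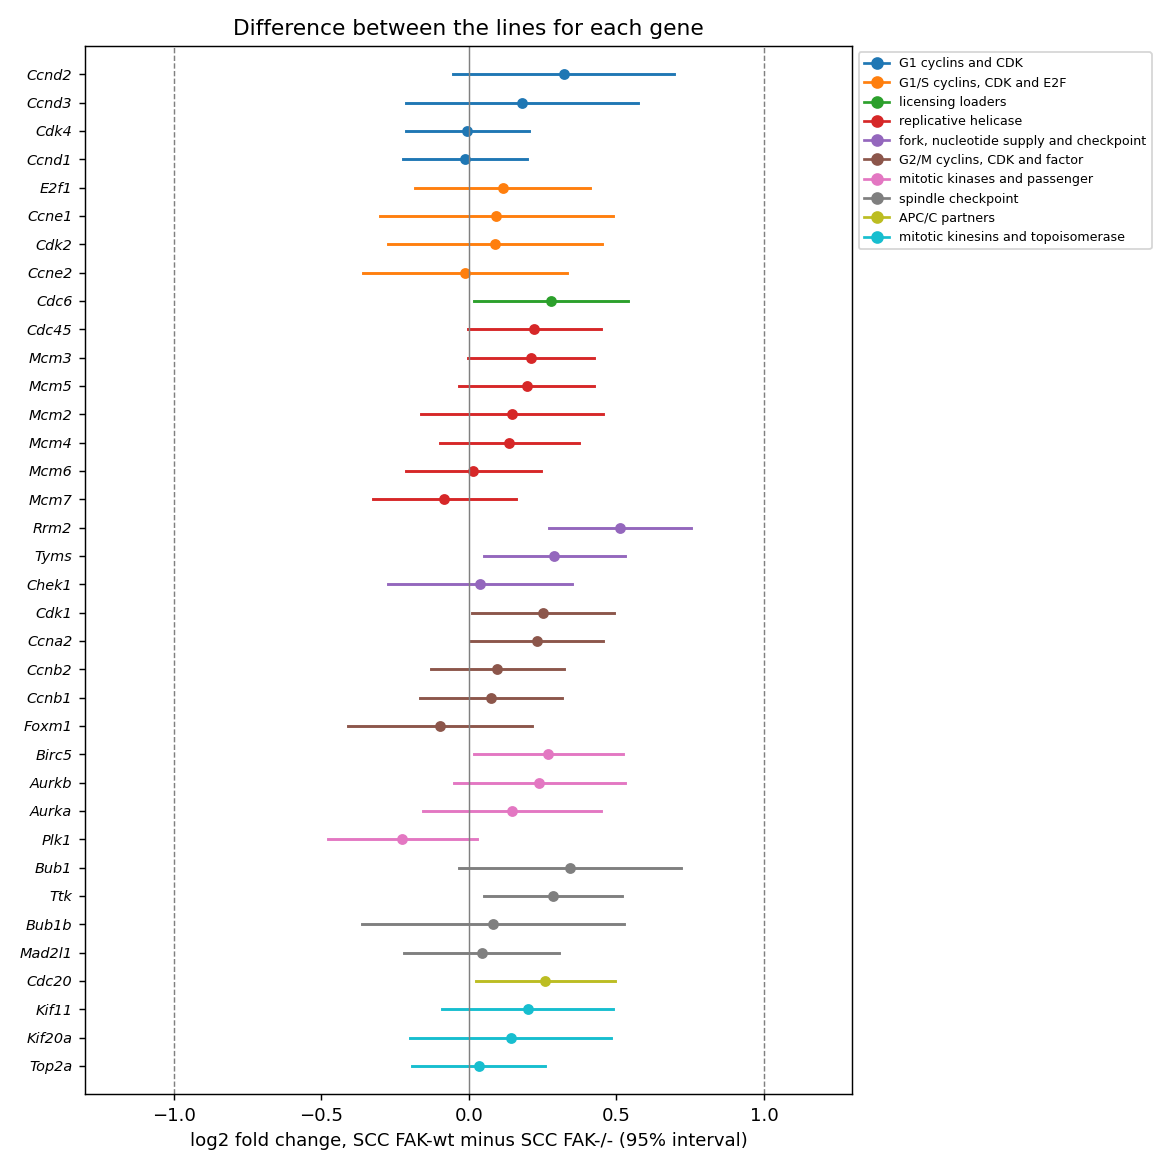
Log2 fold change of each of the 36 genes (horizontal axis, SCC FAK-wt minus SCC FAK-/-, limma estimate with its 95% interval), grouped and coloured by role; dashed lines mark a 2-fold change. Every interval lies between the dashed lines, and the point for Rrm2, at 0.51, is the farthest from 0.

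The differences leaned to 1 side. The log2 fold change was above 0 in 30 of the 36 members (83.3%) and in 53.3% of all genes, and the median was 0.14 for the members and 0.016 for all genes. In 14 members (38.9%) every SCC FAK-wt sample was higher than every SCC FAK-/- sample, a pattern found in 11.5% of all genes and in 14.7% of the genes left once the third with the lowest mean was removed, a filter that all 36 members passed. The reverse pattern was found in 1 member, Plk1, and in 10.0% of all genes. It was found in no member after each array was centred on its median, and in 3 members after quantile normalization or cyclic loess. The lean depended on the scaling. After centring, quantile normalization and cyclic loess, the member median was 0.18, 0.10 and 0.10, against 0.048, 0.012 and 0.0043 for all genes. Members higher without overlap became 13, 11 and 11, against 14.4%, 11.3% and 10.7% of all genes. The 36 genes were read from the same 6 arrays and their transcripts vary together through the cell cycle, so these shares describe the list and were not tested.

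**Figure D2:**
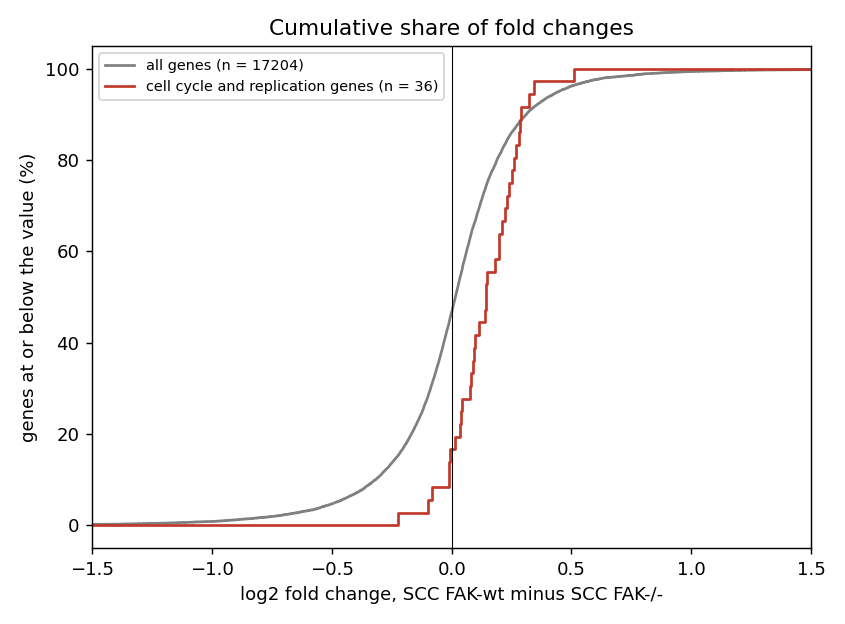
Cumulative share of genes (vertical axis, percent) at or below each log2 fold change (horizontal axis, SCC FAK-wt minus SCC FAK-/-) for the 36 cell cycle and replication genes and for all 17204 genes. The curve of the 36 genes lies to the right of that of all genes over most of its range and ends at 0.51; the horizontal axis stops short of the most changed genes.

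Among the regulators of G1, the genes of cyclin D1 and CDK4 were nearly level between the lines. Ccnd1 (ENSMUSG00000070348), which encodes cyclin D1, the D-type cyclin best known as a target of growth factor and adhesion signals, was at log2 values of 11.99, 11.96 and 11.94 in SCC FAK-wt replicates 1 to 3 and at 11.96, 11.98 and 11.99 in SCC FAK-/-. Cdk4 (ENSMUSG00000006728), its kinase partner, was at 11.04, 11.06 and 11.05 in SCC FAK-wt and at 11.03, 11.05 and 11.09 in SCC FAK-/-. The samples of the lines overlapped for both genes, and the 95% intervals of the log2 fold change were -0.22 to 0.20 for Ccnd1 and -0.21 to 0.20 for Cdk4, with estimates of -0.013 and -0.0051 that turned positive when each array was centred on its median. Ccnd2, which encodes cyclin D2, had the largest difference of this group, with log2 values of 4.95, 4.75 and 5.26 in SCC FAK-wt and 4.58, 4.87 and 4.55 in SCC FAK-/-. SCC FAK-/- replicate 2 lay above SCC FAK-wt replicate 2, so the lines overlapped, and the log2 fold change of 0.32 (standard error 0.16) had an adjusted p of 0.401 (limma), and its log2 fold change lay between 0.19 and 0.44 without any 1 array. Ccnd3, for cyclin D3, had a log2 fold change of 0.18, with 1 SCC FAK-wt sample, replicate 2, at 8.05 and the other two at 7.64 and 7.55.

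The genes of the G1/S switch did not separate the lines. E2f1, which encodes the transcription factor at the centre of this switch, was at log2 values of 9.62, 9.75 and 9.40 in SCC FAK-wt and at 9.39, 9.60 and 9.44 in SCC FAK-/-. Its log2 fold change of 0.11 was the largest of the 4 genes of this group, and the samples overlapped in all 4. With an array left out it ranged from 0.035 to 0.21. Ccne1 and Ccne2, for the E-type cyclins, had log2 fold changes of 0.093 and -0.013, and Cdk2, for their kinase, 0.087. The SD between SCC FAK-wt samples was 0.28 for Ccne1, 0.26 for Ccne2 and 0.28 for Cdk2, several times their differences between the lines.

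Of the 7 genes of the replicative helicase, 6 had a log2 fold change above 0, where 53.3% of all genes did, and none passed an unadjusted p under 0.05. Cdc6 (ENSMUSG00000017499), which encodes a loader of the MCM ring at origins, was at log2 values of 9.46, 9.23 and 9.34 in SCC FAK-wt and at 9.15, 9.10 and 8.95 in SCC FAK-/-, with no overlap. Its log2 fold change was 0.28 (standard error 0.11), with an unadjusted p of 0.0387 and an adjusted p of 0.286 (limma). Cdc45, whose product joins the ring when it is activated, was at 8.50, 8.64 and 8.66 against 8.40, 8.37 and 8.37, again without overlap, a log2 fold change of 0.22 ± 0.096 (standard error) with a limma adjusted p of 0.327. Within the MCM ring itself, whose 6 subunits are encoded by Mcm2 to Mcm7, the log2 fold changes ran from -0.083 to 0.21. Mcm3 was at 0.21, Mcm5 at 0.20, Mcm2 at 0.15, Mcm4 at 0.14, Mcm6 at 0.015, below 0 after quantile normalization or cyclic loess, and Mcm7 at -0.083. This order rests in part on single arrays: without SCC FAK-wt replicate 2 Mcm2 was at 0.025 and Mcm6 at 0.053, and with any 1 array left out Mcm4 ranged from 0.074 to 0.18. The lines did not overlap for Mcm3, Mcm4 and Mcm5, which were higher in SCC FAK-wt, a pattern found in 11.5% of all genes. None of the 6 subunit genes passed an unadjusted p under 0.05. Taken within each array, the log2 value of Mcm3 minus that of Mcm7 was -1.40, -1.27 and -1.39 in SCC FAK-wt and -1.56, -1.66 and -1.73 in SCC FAK-/-, so that the difference between the subunits shifted by 0.29 between the lines. This pair was chosen after the values were seen and its shift was not tested.

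**Figure D3:**
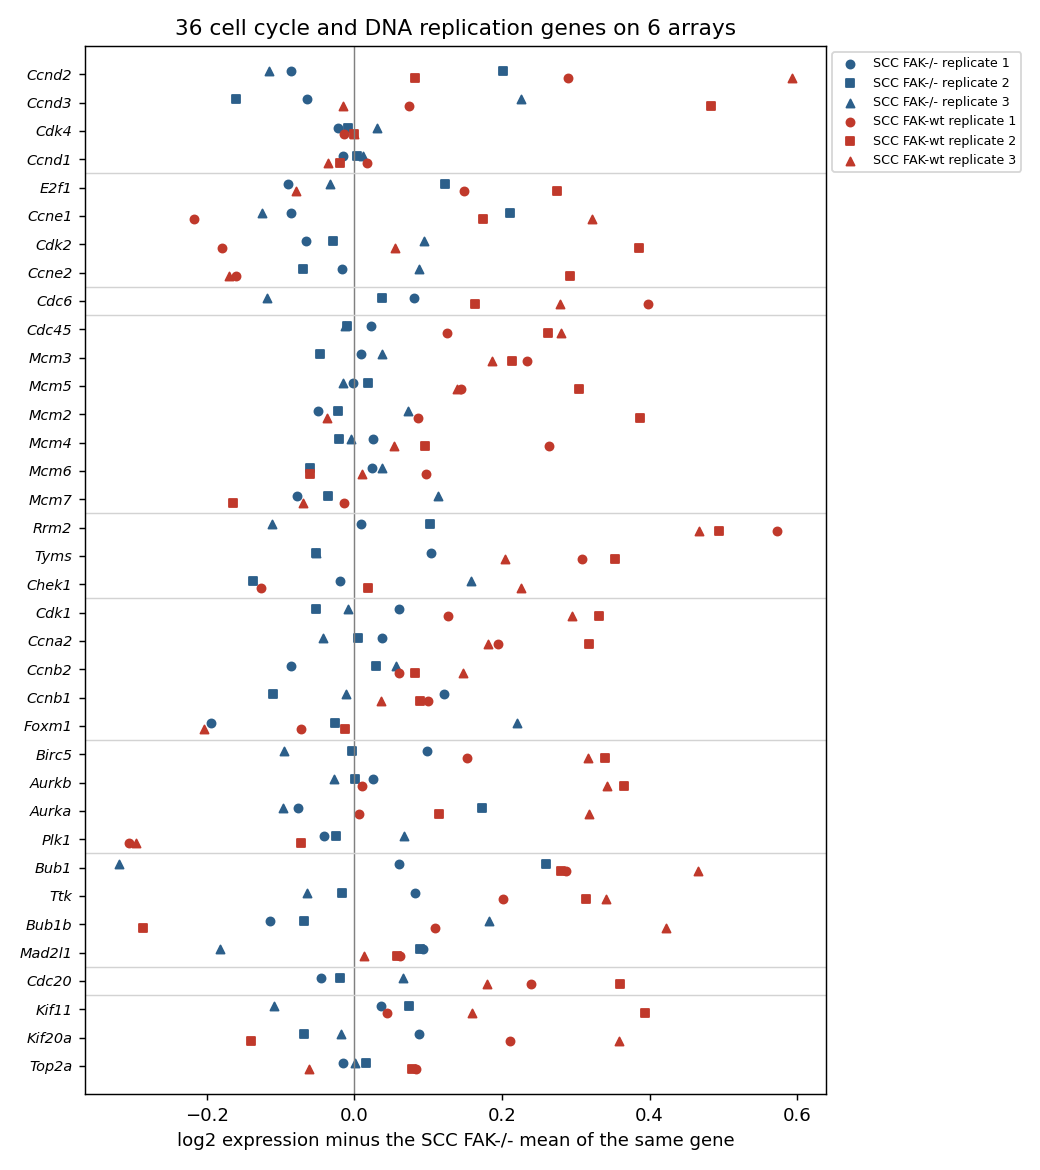
Log2 expression on each array minus the SCC FAK-/- mean of the same gene (horizontal axis) for the 36 genes, ordered from G1 at the top to mitosis at the bottom, with 3 SCC FAK-/- samples in blue, 3 SCC FAK-wt samples in red and the replicate number as the symbol. The red points of Rrm2, at 0.47 or more above the SCC FAK-/- mean, stand clear of its blue points, while in the top 2 groups red and blue points overlap in every gene.

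The largest difference of all 36 members was in nucleotide supply. Rrm2 (ENSMUSG00000020649) encodes the small subunit of ribonucleotide reductase, the enzyme that makes deoxyribonucleotides and limits their supply in S phase. It was at log2 values of 11.43, 11.35 and 11.32 in SCC FAK-wt and at 10.86, 10.96 and 10.74 in SCC FAK-/-. The lowest SCC FAK-wt sample was thus above the highest SCC FAK-/- sample, and the means were 11.37 ± 0.055 (SD, n = 3) and 10.85 ± 0.11 (SD, n = 3). The log2 fold change was 0.51 (standard error 0.10), a 1.43-fold difference with a 95% interval of 1.21 to 1.68, at an unadjusted p of 0.00140 and an adjusted p of 0.0604 (limma). The difference was larger than the spread between replicates, and Rrm2 stood at rank 400 of 17204 genes by p. Tyms (ENSMUSG00000025747), which encodes thymidylate synthase, the source of new dTMP, was at 5.63, 5.68 and 5.53 against 5.43, 5.27 and 5.27, without overlap, a log2 fold change of 0.29 ± 0.10 (standard error) with a limma adjusted p of 0.231. Chek1, for the checkpoint kinase that guards stalled forks, overlapped between the lines, with a log2 fold change of 0.039.

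The adjusted p of Rrm2 moved across 0.05 with the processing. It was under 0.05 with each array centred on its median (0.0446), with variances moderated along a trend and robustly (0.00986) and with the third of genes of lowest mean left out (0.0458). It was above 0.05 under the other 11 alternatives, from 0.0576 with array weights to 0.165 without SCC FAK-/- replicate 3. The log2 fold change stayed between 0.46 and 0.56 under all 14.

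**Figure D4:**
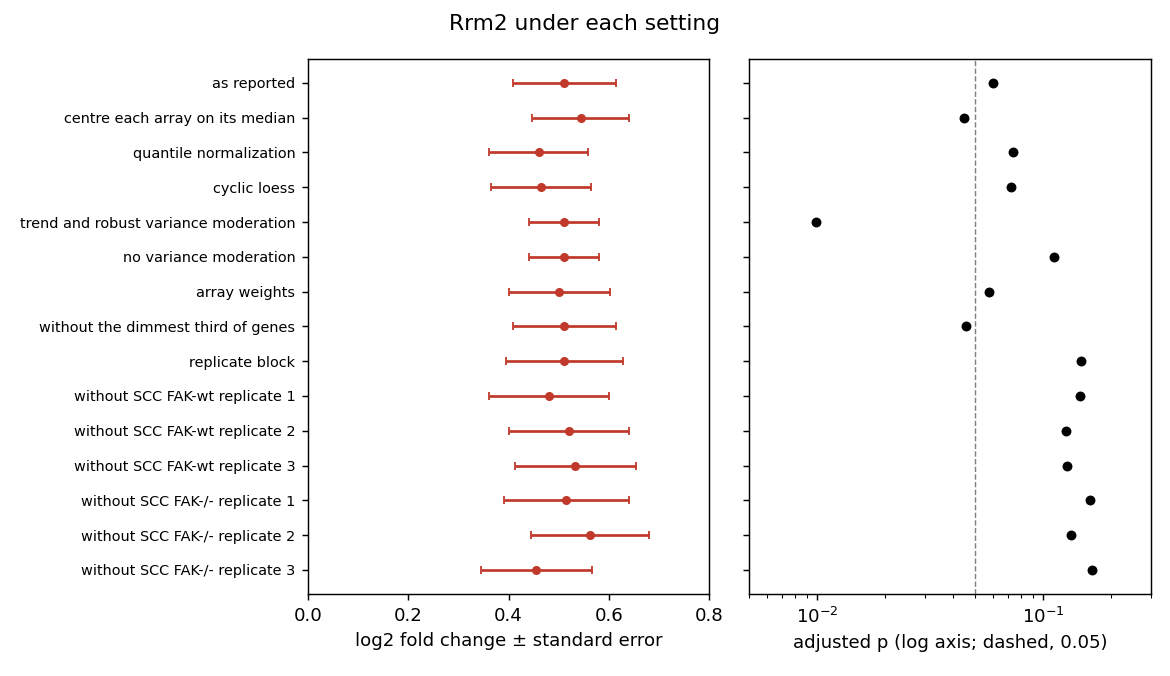
Rrm2 under the reported setting and 14 alternatives: the log2 fold change with its standard error (left, SCC FAK-wt minus SCC FAK-/-) and the Benjamini-Hochberg adjusted p over all genes tested (right, log axis). The fold change stays between 0.46 and 0.56, while the adjusted p lies on both sides of the dashed line at 0.05.

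Among the 5 genes of G2 and mitotic entry, the samples of the lines did not overlap for Cdk1, Ccna2 and Ccnb2. All of these were higher in SCC FAK-wt, a pattern found in 11.5% of all genes and in 14.7% without the third of lowest mean. Cdk1 (ENSMUSG00000019942) encodes the kinase that drives entry into mitosis, and its log2 values were 11.59, 11.79 and 11.76 in SCC FAK-wt and 11.52, 11.41 and 11.45 in SCC FAK-/-. The log2 fold change was 0.25 (standard error 0.10), with a limma p of 0.0433 before and 0.301 after adjustment. Ccna2 (ENSMUSG00000027715), for cyclin A2, which serves both S phase and mitotic entry, was at 11.30, 11.43 and 11.29 against 11.15, 11.11 and 11.07, a log2 fold change of 0.23. Ccnb2, for cyclin B2, separated by a small margin with a log2 fold change of 0.096, and its lowest SCC FAK-wt sample was at 10.06 and its highest SCC FAK-/- sample at 10.05. Ccnb1 and Foxm1, the latter for the transcription factor that activates many mitotic genes, overlapped between the lines at 0.075 and -0.097. Within each array, Ccna2 minus Ccnb1 was 2.78, 2.91 and 2.82 in SCC FAK-wt and 2.60, 2.80 and 2.65 in SCC FAK-/-, so that the difference between these cyclins overlapped between the lines; it was not tested.

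Of the mitotic kinases Aurka, Aurkb and Plk1, none passed an unadjusted p under 0.05, and Birc5 passed it. Birc5 (ENSMUSG00000017716), which encodes survivin, the partner of Aurora B in the chromosomal passenger complex, was at log2 values of 11.41, 11.60 and 11.58 in SCC FAK-wt and at 11.36, 11.26 and 11.17 in SCC FAK-/-, a log2 fold change of 0.27 ± 0.11 (standard error) with a limma adjusted p of 0.286. Aurkb, for Aurora B, had a log2 fold change of 0.24 and Aurka, for Aurora A at the spindle poles, 0.15, and both overlapped. With an array left out Aurka ranged from 0.060 to 0.23. For Aurkb the overlap came from SCC FAK-wt replicate 1, at 9.34, while replicates 2 and 3 were at 9.69 and 9.67. Plk1 (ENSMUSG00000030867), for polo-like kinase 1, was at 9.52, 9.75 and 9.53 in SCC FAK-wt and at 9.78, 9.80 and 9.89 in SCC FAK-/-. Every SCC FAK-wt sample was below every SCC FAK-/- sample, with a log2 fold change of -0.23 (standard error 0.11, 95% interval -0.48 to 0.028, limma adjusted p = 0.381). The separation was narrow, 9.75 against 9.78, and was lost after each array was centred on its median. Within each array, Aurkb minus Plk1 was -0.18, -0.057 and 0.14 in SCC FAK-wt and -0.43, -0.47 and -0.59 in SCC FAK-/-, a shift of 0.46 for a pair chosen after the values were seen and not tested.

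**Figure D5:**
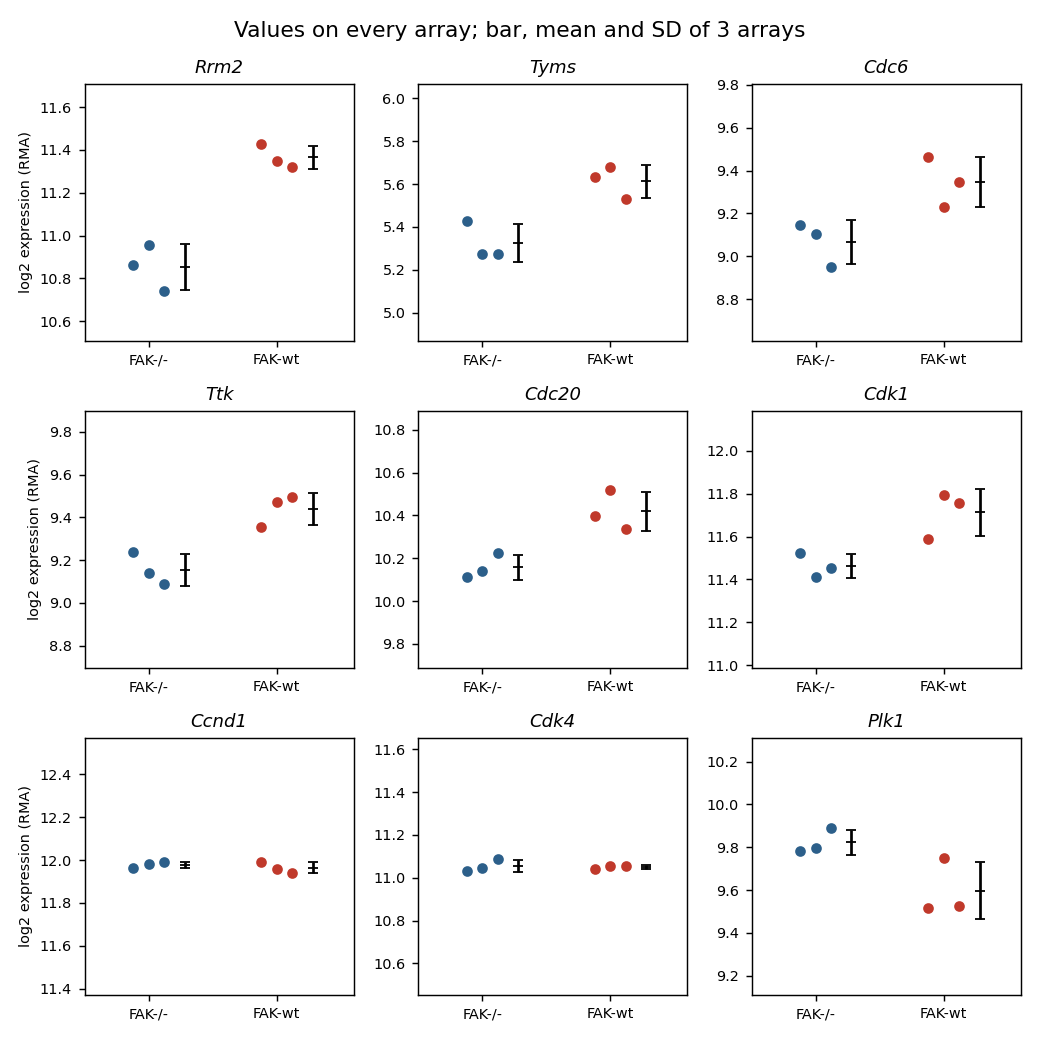
Log2 expression (vertical axes, each spanning the same number of log2 units) of 9 of the genes on every array, with SCC FAK-/- samples in blue and SCC FAK-wt samples in red; bars give the mean and SD of 3 samples. Rrm2 shows the widest gap between the lines, Ccnd1 and Cdk4 show none, and Plk1 runs the other way with log2 means of 9.60 in SCC FAK-wt and 9.82 in SCC FAK-/-.

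The spindle checkpoint holds anaphase until all chromosomes are attached, and its genes were at log2 fold changes of 0.34 (Bub1), 0.29 (Ttk), 0.081 (Bub1b) and 0.044 (Mad2l1). Bub1 (ENSMUSG00000027379) was at log2 values of 9.19, 9.18 and 9.37 in SCC FAK-wt and at 8.97, 9.16 and 8.59 in SCC FAK-/-. Its lines did not overlap, but SCC FAK-/- replicate 3 lay far below the other two, and without that sample the log2 fold change was 0.18. Ttk (ENSMUSG00000038379), for the kinase MPS1, was at 9.36, 9.47 and 9.50 against 9.24, 9.14 and 9.09, and its log2 fold change stayed between 0.25 and 0.33 with any 1 array left out. Bub1b, for BUBR1, had the widest spread of the members in SCC FAK-wt, from 8.73 in replicate 2 to 9.44 in replicate 3. Cdc20 (ENSMUSG00000006398), which activates the anaphase-promoting complex once the checkpoint is satisfied, was at 10.40, 10.52 and 10.34 in SCC FAK-wt and at 10.11, 10.14 and 10.22 in SCC FAK-/-, a log2 fold change of 0.26 ± 0.10 (standard error) with a limma adjusted p of 0.271.

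The motors and the topoisomerase of mitosis overlapped between the lines. Kif11, for the kinesin that pushes spindle poles apart, was at log2 values of 9.12, 9.47 and 9.24 in SCC FAK-wt and at 9.11, 9.15 and 8.97 in SCC FAK-/-, a log2 fold change of 0.20 (standard error 0.12). Kif20a, for a kinesin of cytokinesis, had a log2 fold change of 0.14 (0.035 to 0.28 leaving out each array in turn), and Top2a, for the topoisomerase that untangles sister chromatids, 0.033 with a 95% interval of -0.19 to 0.26.

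Set against their promoters, the 10 members with a value and an E2F match had a median log2 fold change of 0.14, and the 18 without one had a median of 0.15. The 13 members with a CHR and a CCAAT box together had a median of 0.15, with Plk1 at the low end and Bub1 at 0.34 at the high end, and the 15 others had a median of 0.11. The groups rest on single windows that may miss the promoter in use. Their ranges overlap, and the groups were not tested against each other.

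Medians over the members differed more between the SCC FAK-wt samples than between the SCC FAK-/- samples. Relative to its own mean on all 6 arrays, the median member stood at 0.034, 0.11 and 0.060 in SCC FAK-wt replicates 1 to 3 and -0.072, -0.085 and -0.081 in SCC FAK-/-. The corresponding medians over all genes were between -0.041 and 0.027. SCC FAK-wt replicate 2 held the highest of the 6 values for 13 members, and SCC FAK-/- replicate 3 the lowest for 13; over all genes these arrays held the highest value for 17.7% and the lowest for 23.6%. The median SD of the members was 0.10 in SCC FAK-wt and 0.082 in SCC FAK-/-, where that of all genes was 0.15 in each line. For 25 of the 36 members the larger SD was that of SCC FAK-wt, as it was for 53.5% of all genes.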

How the data were processed

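RNA from 3 samples of each line, called biological replicates by the submitters, was amplified and hybridized to mouse Affymetrix GeneChips. The authors summarised probes by Ensembl gene and normalized the arrays with RMA in affy; the deposited values were taken as log2 from their range (1.34 to 13.76, array medians 5.90 to 5.97). The package version and probe mapping are not given in the sources used here. No array duplicated another. Samples were grouped by title. All 17204 genes were fitted with limma 3.58.1 in R 4.3.3 (lmFit, eBayes, two-sided, 7.27 total degrees of freedom), with Benjamini-Hochberg adjustment over all genes, after a test on simulated data. The alternatives were 3 further scalings, 2 other treatments of the variance, array weights, a filter on dim genes, a replicate block and leaving out each array. Arrays have no read depth, and 3 per line limit the precision. The members, lists and tests were chosen with earlier results of these data known. Genes named are all 40 members, with every value printed for Rrm2 and for the largest change in each role. Gene symbols of members came from the list that defines them. The other identifiers were not paired with symbols here, so further pathway lists, cell type markers and the fak gene itself were not analysed here. Promoters were matched by symbol to RefSeq (GRCm38.p6).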

Additional observations from a re-analysis of the deposited data

How the results depend on the processing

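No member passed an adjusted p under 0.05 under 11 of 14 alternatives. The count of members higher in SCC FAK-wt was 1, Rrm2, with each array centred on its median, with trend and robust moderation and without the third of genes of lowest mean. That of members lower was 0 throughout. At an unadjusted p under 0.01 the count was 1 higher and 0 lower. It became 5 higher with trend and robust moderation and 4 higher without moderation, and the cause was not tested. Calls over all genes at this threshold were not counted under the alternatives, so these counts cannot be set against a share of all genes. At an adjusted p under 0.05, calls over all genes rose from 141 higher and 189 lower to 247 and 302 with trend and robust moderation. Without moderation they fell to 14 and 25. With 1 array left out the count of members at an unadjusted p under 0.01 was 1 in every fit. The median log2 fold change of the members (0.14) was 0.18 after centring, 0.10 after quantile normalization, 0.10 after cyclic loess and 0.12 to 0.21 with an array left out, lowest without SCC FAK-wt replicate 2 and highest without SCC FAK-wt replicate 1. The log2 fold change was above 0 in 28 to 33 members, against 30. Further checks, chosen after seeing the data, recounted the members without overlap between the lines (14 higher, 1 lower). They gave 13 and 0 after centring, 11 and 3 after quantile normalization, 11 and 3 after cyclic loess, 16 and 2 without SCC FAK-wt replicate 2 and 15 and 2 without SCC FAK-/- replicate 3. Over all genes 10.7% to 18.0% were higher and 8.23% to 15.5% lower without overlap in these 5 checks.

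Of 504 values of single members under the alternatives, 483 kept their direction and their side of the threshold, 3 (Rrm2) crossed it and 18 changed sign, in 10 genes with no call in any fit. Centring turned Cdk4 to 0.027, Ccne2 to 0.020 and Ccnd1 to 0.020, and Mcm6 turned to -0.022 under quantile normalization and -0.031 under cyclic loess. With an array left out, the log2 fold changes were -0.025 to 0.053 for Mcm6, -0.17 to 0.066 for Ccne2, -0.062 to 0.22 for Cdk2, -0.022 to 0.25 for Ccne1, -0.054 to 0.12 for Chek1, -0.089 to 0.27 for Bub1b, -0.19 to 0.014 for Foxm1, -0.016 to 0.010 for Cdk4 and -0.047 to 0.090 for Mad2l1.

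Under a replicate block built on the sample numbers, 0 members passed an adjusted p under 0.05, 1 passed an unadjusted p under 0.01, and Rrm2 had a log2 fold change of 0.51 with an adjusted p of 0.148 (limma). The deviations of same-numbered arrays correlated across genes at -0.034 to 0.028. A batch acting on few genes could leave correlations this small, so whether same-numbered samples were handled together was not tested. The planned lists of other pathway genes were not run.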
